A study of Mus musculus with 4 samples.

Results

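The 10 genes described here, Cx3cr1, Csf1r, P2ry12, C1qa, C1qb, C1qc, Tyrobp, Fcer1g, Aif1 and Cd68, are transcribed by microglia, the resident macrophages of the retina. They were chosen by name, and all 10 were found among the 21829 genes of the tables, each on a single row with an OK status in every library. Poly(A) RNA was sequenced from retinal cells of mice at postnatal day 12, whose background strain the labels give as slc:ICR. The dissociated cells were stained for Cd73, the ecto-enzyme encoded by Nt5e that rods and their precursors carry, and sorted into a Cd73-positive fraction (Cd73P) and a Cd73-negative fraction (Cd73N). Both fractions were collected from normal littermates (wild type) and from Ezh2 floxed mice with the Dkk3-Cre transgene (Ezh2-CKO), which gave 4 groups with 1 library each. Ezh2 is the histone H3 lysine 27 methyltransferase of Polycomb repressive complex PRC2, and Dkk3-Cre acts in retinal progenitors from an early embryonic stage. All mice were free of the rd1 and rd8 alleles, and the number of retinas behind each library is not given in the sources used here.

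Microglia descend from yolk sac progenitors that enter the retina during development, and not from the retinal progenitors that form neurons and Müller glia. They survey the tissue through receptors for neuronal and extracellular signals, produce the C1q complex that tags synapses and debris, and engulf the tagged material. The 10 genes cover these tasks. Cx3cr1, Csf1r and P2ry12 encode surface receptors, C1qa, C1qb and C1qc encode the 3 chains of C1q, Tyrobp and Fcer1g encode adaptors that carry receptor signals inwards, and Aif1 and Cd68 encode an actin-binding protein of the cytoplasm and a glycoprotein of the lysosome.

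Values are FPKM, fragments per unit of exon length, scaled to sequencing depth, which allows levels of different genes to be compared. Ratios are differences of log2(FPKM + 1), which understates ratios of low values, and a gene was counted as higher or lower past a 1.5-fold difference on that scale, a log2 ratio of 0.58. Each standard error (SE) was taken from the deposited FPKM bounds and covers counting error only. With 1 library per group no difference has a replicate check, and no test was made. Nt5e, which encodes Cd73, was 0.84 FPKM (wild type) and 0.61 FPKM (labelled Ezh2-CKO) in the negative fraction, against 125 and 123 FPKM in the positive one. Ezh2 was 14.1 FPKM in Cd73N wild type, 15.9 in the library labelled Cd73N Ezh2-CKO, 5.38 in wild-type Cd73P and 3.45 in Ezh2-CKO Cd73P. The library labelled Cd73N Ezh2-CKO therefore did not show less Ezh2 than its control, and a gene-level FPKM does not show the loss of a floxed exon. Ezh2 also shares exon bases with Gm17629 on the other strand in the annotation. Depth relative to Cd73N wild type, inferred from the bounds, was 1.18 in the library labelled Cd73N Ezh2-CKO, near 1 in wild-type Cd73P and 1.04 in Ezh2-CKO Cd73P. In bulk RNA, fewer microglia and less RNA per microglial cell cannot be told apart.

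The 10 microglia genes were detected in every library and were lower in Cd73P than in Cd73N in both genotypes. Their FPKM summed to 110 in Cd73N wild type, 160 in the library labelled Cd73N Ezh2-CKO, 23.4 in wild-type Cd73P and 30.6 in Ezh2-CKO Cd73P. Cd73P thus held 21.3% ± 0.86 (SE) of the Cd73N sum in wild type and 19.1% ± 0.64 in Ezh2-CKO. Between genotypes the sum was 1.46-fold ± 0.032 higher in the library labelled Cd73N Ezh2-CKO than in its control, and 1.31-fold ± 0.062 higher in Ezh2-CKO Cd73P than in wild-type Cd73P. The plot of levels by library shows the gap between fractions for each gene and the smaller gap between genotypes.

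**Figure D1:**
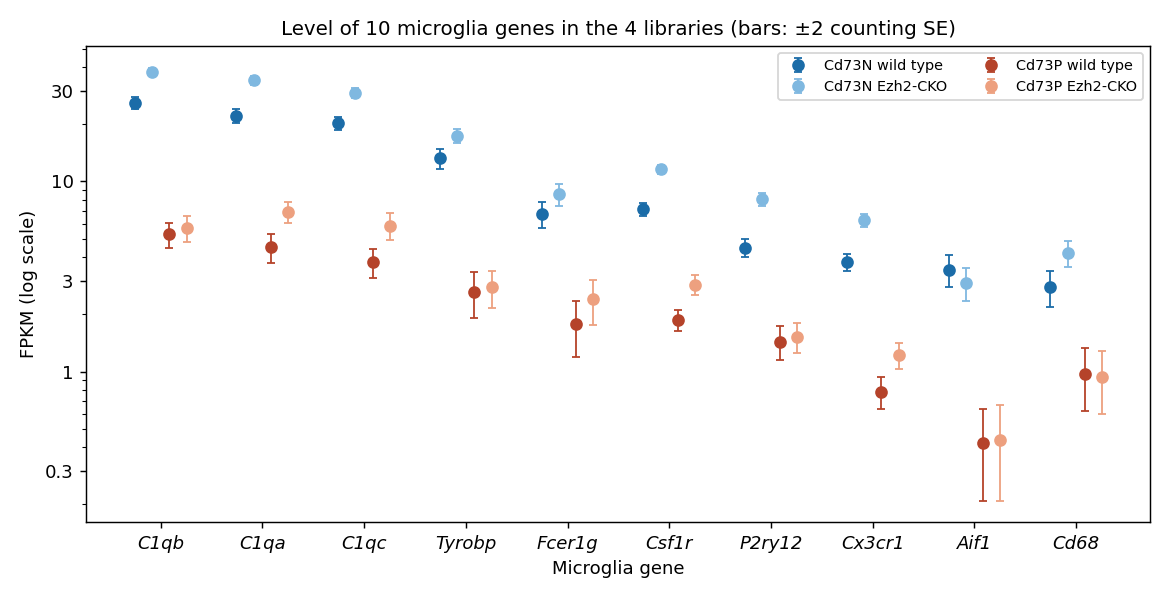
FPKM of each microglia gene on a log axis in Cd73N wild type (dark blue), the library labelled Cd73N Ezh2-CKO (light blue), Cd73P wild type (dark red) and Cd73P Ezh2-CKO (light red), 1 library each, with bars of ±2 counting SE. Both Cd73N points stand above both Cd73P points for all 10 genes, and Aif1 alone is lower in the library labelled Cd73N Ezh2-CKO than in its control (2.93 against 3.43 FPKM).

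Between the fractions, all 10 genes were lower in Cd73P in wild type, with a median log2 ratio of -1.57 and a range from -2.16 for C1qc to -0.94 for Cd68. Lower values in Cd73P were common: 27.9% of all genes and 45.9% of genes with an FPKM of at least 1 in 1 library of the pair were past the threshold in that direction, against 9.07% and 15.4% in the other direction. The median over genes with an FPKM of at least 1 was -0.47. In Ezh2-CKO all 10 were again lower, with a median of -1.78 and a range from -2.54 for C1qb to -1.42 for Cd68. The corresponding shares were 29.1% and 45.6% lower and 8.4% and 13.8% higher, with a median of -0.46. When libraries were scaled by their median ratio or their FPKM sum, the scale of Cd73P over Cd73N rose by a log2 factor of 0.31 or 0.42 in wild type and 0.27 or 0.21 in Ezh2-CKO, before the pseudocount was added. The medians of the 10 genes were then -1.36 or -1.30 and -1.58 or -1.63, and all 10 remained lower. With a pseudocount of 5, 8 genes in wild type and 9 in Ezh2-CKO were past the threshold.

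Between genotypes, 4 of the 10 genes (P2ry12, Csf1r, Cx3cr1 and C1qa) were higher and none was lower in the library labelled Cd73N Ezh2-CKO than in its control. The background was 7.18% higher and 1.71% lower over all genes, and 11.6% higher and 2.87% lower over genes with an FPKM of at least 1 in 1 library of the pair. The median of the 10 genes was 0.52, against -0.04 over genes with an FPKM of at least 1. Ratios were above 0 for 9 of the 10 genes, against 46.4% of those background genes. The 4 ratios, from 0.60 to 0.73, lay just past the threshold, and no gene was past it with a pseudocount of 5 or at 2-fold. Scaling by the FPKM sum, a log2 factor of 0.15 before the pseudocount, gave a median of 0.66, and 6 of the 10 were then higher. That scaling moves the ratios of other genes upwards too, and the share of all genes was not recomputed under it. In Cd73P none of the 10 genes was past the threshold in either direction on the log2(FPKM + 1) scale. Ratios there were above 0 for 9 of the 10 genes, those of C1qb, P2ry12, Tyrobp and Aif1 by less than their counting SE. Over genes with an FPKM of at least 1 in 1 library of the pair, 42.5% were above 0. Without a pseudocount C1qa was 1.54-fold higher in Ezh2-CKO in both fractions, so its call in Cd73N alone follows from the pseudocount. Csf1r, Cx3cr1 and C1qc were 1.53-fold, 1.56-fold and 1.56-fold higher in Ezh2-CKO Cd73P without a pseudocount. On the log2(FPKM + 1) scale the background in Cd73P was 2.26% higher and 2.38% lower over all genes. Over genes with an FPKM of at least 1 it was 4.31% and 4.53%, and the median of the 10 genes was 0.19. With a pseudocount of 0.1, 3 of the 10 were higher in Ezh2-CKO Cd73P. The share of all genes was not computed without a pseudocount or with 0.1, so these folds and this count have no matching background.

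**Figure D2:**
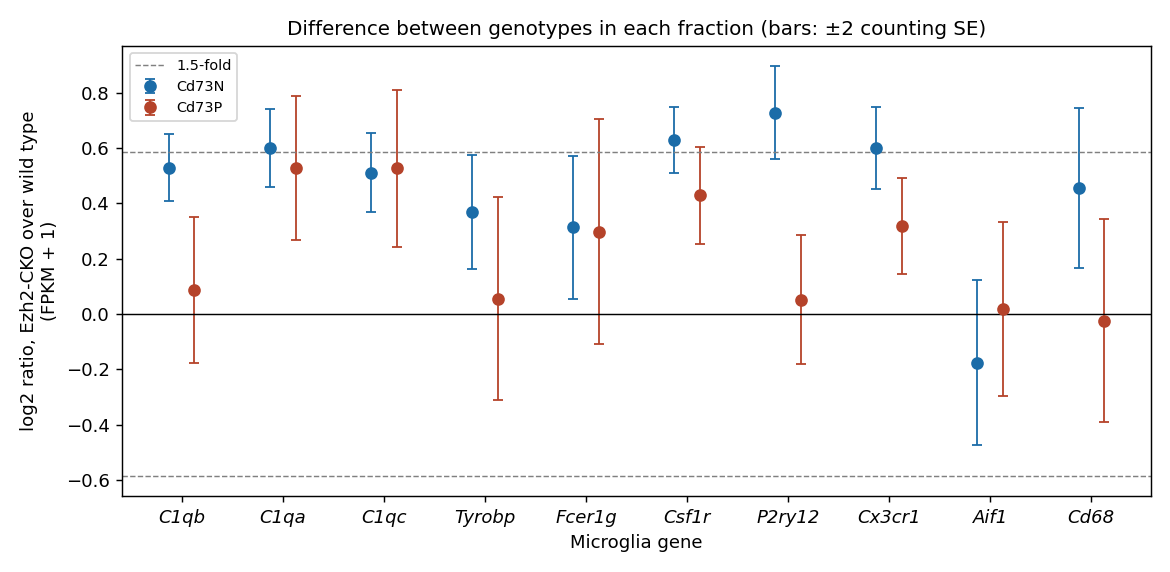
Log2 ratio of FPKM + 1, Ezh2-CKO over wild type, for each microglia gene in Cd73N (blue) and Cd73P (red), 1 library per group, with bars of ±2 counting SE and dashed lines at 1.5-fold. P2ry12 (0.73), Csf1r (0.63), Cx3cr1 (0.60) and C1qa (0.60) lie above the upper line in Cd73N, no point lies above it in Cd73P, and the bars of Cx3cr1, Csf1r, C1qa and C1qc stay above 0 in both fractions.

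Among the receptors, Csf1r, the receptor for the survival factors CSF1 and IL-34, was the most abundant and rested on the most fragments. Its level was 7.14 ± 0.28 FPKM in Cd73N wild type, 11.6 ± 0.30 in the library labelled Cd73N Ezh2-CKO, 1.87 ± 0.12 in wild-type Cd73P and 2.86 ± 0.17 in Ezh2-CKO Cd73P. The levels of the genotypes were apart by more than counting error in both fractions, and the levels of the fractions were further apart. The log2 ratio of Cd73P over Cd73N was -1.51 ± 0.077 in wild type and -1.71 ± 0.073 in Ezh2-CKO. The ratio of Ezh2-CKO over wild type was 0.63 ± 0.060 in Cd73N and 0.43 ± 0.088 in Cd73P. On mm9 the gene spans chr18:61265226-61290793 on the plus strand.

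Cx3cr1, the receptor for the neuronal chemokine fractalkine, was 3.78 ± 0.19 FPKM in Cd73N wild type, 6.24 ± 0.24 in the library labelled Cd73N Ezh2-CKO, 0.78 ± 0.075 in wild-type Cd73P and 1.22 ± 0.096 in Ezh2-CKO Cd73P. It had the same order of libraries as Csf1r. Its ratio of Cd73P over Cd73N was -1.42 ± 0.083 in wild type and -1.71 ± 0.079 in Ezh2-CKO, and its ratio of Ezh2-CKO over wild type was 0.60 ± 0.075 in Cd73N and 0.32 ± 0.087 in Cd73P. On mm9 the gene spans chr9:119957811-119977400 on the minus strand.

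P2ry12 encodes the receptor for ADP that guides microglial processes to injured cells. It was 4.49 ± 0.25 FPKM in Cd73N wild type, 8.09 ± 0.32 in the library labelled Cd73N Ezh2-CKO, 1.44 ± 0.14 in wild-type Cd73P and 1.53 ± 0.14 in Ezh2-CKO Cd73P. The genotypes stood apart in Cd73N and lay within counting error of each other in Cd73P, with ratios of 0.73 ± 0.083 and 0.05 ± 0.12. The difference between those ratios, 0.68 ± 0.14, was the widest among the 10 genes and has no replicate check. P2ry12 lies at chr3:59020193-59066753 (mm9, minus strand) inside Med12l on the plus strand, with no shared exon bases in the annotation. Med12l was 2.22, 4.77, 2.35 and 1.41 FPKM in the same order of libraries, so it too was higher in the library labelled Cd73N Ezh2-CKO, with a ratio of 0.84. In Cd73P its ratio was -0.48. No strand setting is given in the sources used here, so reads within P2ry12 cannot be assigned to one of the 2 genes with certainty.

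The C1q chains were the most abundant of the 10 genes in every library. Together they held 62.2% of the summed FPKM of the 10 genes in Cd73N wild type, 63.2% in the library labelled Cd73N Ezh2-CKO, 57.8% in wild-type Cd73P and 60.3% in Ezh2-CKO Cd73P. The 3 chains are built into C1q in equal numbers, and their genes lie within 18.7 kb of chromosome 4 on the minus strand, C1qb at chr4:136436061-136442092, C1qc at chr4:136445717-136448829 and C1qa at chr4:136451831-136454759 (mm9).

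C1qa was 22.2 ± 0.97 FPKM in Cd73N wild type, 34.1 ± 0.88 in the library labelled Cd73N Ezh2-CKO, 4.51 ± 0.39 in wild-type Cd73P and 6.94 ± 0.45 in Ezh2-CKO Cd73P. C1qb was 25.9 ± 0.92, 37.8 ± 0.96, 5.28 ± 0.40 and 5.66 ± 0.44 FPKM in the same order, and C1qc was 20.2 ± 0.84, 29.3 ± 0.92, 3.76 ± 0.34 and 5.86 ± 0.47 FPKM. All 3 chains were higher in both Cd73N libraries than in either Cd73P library. The wild-type ratios of Cd73P over Cd73N were -2.07 ± 0.12 for C1qa, -2.10 ± 0.10 for C1qb and -2.16 ± 0.12 for C1qc. These were the lowest of the 10 genes on the log2(FPKM + 1) scale. With a pseudocount of 0.1 Aif1 was the lowest, at -2.76 against -2.40 for C1qc. In Ezh2-CKO the log2(FPKM + 1) ratios of C1qa, C1qb and C1qc were -2.14 ± 0.089, -2.54 ± 0.10 and -2.14 ± 0.11. The level of C1qa was 0.85, 0.90 and 0.85 times that of C1qb in the first 3 libraries and 1.23 times in Ezh2-CKO Cd73P. Likewise C1qc was 0.78, 0.77 and 0.71 times C1qb there and 1.03 times in Ezh2-CKO Cd73P. The chains thus kept one order in 3 libraries, and C1qb was the lowest of them in the remaining library, within counting error of C1qc.

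Between genotypes the C1q chains differed by close to the threshold in Cd73N, with ratios of 0.60 ± 0.071 for C1qa, 0.53 ± 0.061 for C1qb and 0.51 ± 0.072 for C1qc. In Cd73P, C1qa and C1qc kept ratios of the same size, each 0.53, with SE of 0.13 and 0.14, while C1qb stood at 0.09 ± 0.13. The FPKM of each chain lay above its own deposited upper bound in both Cd73N libraries, as did that of C1qa in Ezh2-CKO Cd73P, so the SE of these values rest on bounds that miss the value.

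PU.1, encoded by Spi1 (Sfpi1 in the tables), is the transcription factor of the ETS family that macrophages depend on, and it binds sites around a GAGGAA core. Windows of the 250 bases before the transcription start were read from RefSeq sequence on GRCm38.p6, another build than the tables, for 7 of the 10 genes. Csf1r was left out of this search, and C1qa and Tyrobp had no window, so the core was not sought in these genes. The core, on either strand, was found in 4 of these 7 windows, those of C1qb, C1qc, Aif1 and Cd68, and not in those of Cx3cr1, P2ry12 and Fcer1g. Among 32851 promoter windows of the same length 23.3% held it. Both C1q windows are shown here because their genes had the lowest wild-type log2 ratios between fractions; the core or its reverse complement TTCCTC is in capitals.
C1qb (chr4:136886201-136886450, minus strand): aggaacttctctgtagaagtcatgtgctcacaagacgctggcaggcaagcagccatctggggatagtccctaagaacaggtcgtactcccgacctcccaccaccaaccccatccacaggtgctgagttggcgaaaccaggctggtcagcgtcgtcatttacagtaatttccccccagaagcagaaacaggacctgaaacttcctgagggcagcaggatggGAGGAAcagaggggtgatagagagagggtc
C1qc (chr4:136892915-136893164, minus strand): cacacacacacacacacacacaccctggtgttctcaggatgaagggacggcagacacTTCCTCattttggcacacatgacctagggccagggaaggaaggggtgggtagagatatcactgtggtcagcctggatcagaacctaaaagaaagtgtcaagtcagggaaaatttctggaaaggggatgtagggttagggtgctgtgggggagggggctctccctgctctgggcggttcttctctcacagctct
In C1qb the core began 30 bases before the start on the coding strand, and in C1qc it lay on the opposite strand, 193 bases before the start. The C1qc match extended to the longer motif GAGGAAGT, which 2.44% of all windows held and which none of the other 6 windows had. These matches describe letters in a window and do not show binding.

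Tyrobp (DAP12) carries the signals of TREM2 and related receptors through an ITAM, the tyrosine motif that recruits SYK kinase, and Fcer1g does so for Fc receptors. Tyrobp was 13.2 ± 0.83 FPKM in Cd73N wild type, 17.4 ± 0.77 in the library labelled Cd73N Ezh2-CKO, 2.64 ± 0.36 in wild-type Cd73P and 2.78 ± 0.31 in Ezh2-CKO Cd73P. Fcer1g was 6.73 ± 0.52, 8.60 ± 0.57, 1.77 ± 0.29 and 2.40 ± 0.32 FPKM. Both adaptors were lower in Cd73P, Tyrobp by a ratio of -1.97 ± 0.16 in wild type and -2.28 ± 0.13 in Ezh2-CKO, and Fcer1g by -1.48 ± 0.18 and -1.50 ± 0.16. Neither passed the threshold between genotypes, with ratios in Cd73N of 0.37 ± 0.10 for Tyrobp and 0.31 ± 0.13 for Fcer1g and in Cd73P of 0.06 ± 0.18 and 0.30 ± 0.20. Tyrobp was 1.97 and 2.02 times Fcer1g in the Cd73N libraries and 1.49 and 1.16 times in the Cd73P libraries. Tyrobp lies at chr7:31198807-31202598 on the plus strand and Fcer1g at chr1:173159703-173164480 on the minus strand (mm9). Both had FPKM above their own upper bound in the Cd73N libraries, and Tyrobp also in Ezh2-CKO Cd73P, so the SE of these values rest on bounds that miss the value.

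Aif1 encodes IBA1, the actin-binding protein widely stained to show microglia. It was 3.43 ± 0.33 FPKM in Cd73N wild type, 2.93 ± 0.28 in the library labelled Cd73N Ezh2-CKO, 0.42 ± 0.11 in wild-type Cd73P and 0.44 ± 0.11 in Ezh2-CKO Cd73P. It was the only one of the 10 genes with a ratio below 0 between the genotypes in Cd73N, at -0.18 ± 0.15, and the genotypes were within 2 SE of each other in both fractions. Its ratios of Cd73P over Cd73N were -1.64 ± 0.15 in wild type and -1.45 ± 0.15 in Ezh2-CKO. Aif1 lies at chr17:35307937-35312946 on the minus strand (mm9).

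Cd68 encodes a glycoprotein of the late endosome and lysosome that rises in phagocytic cells. It was 2.79 ± 0.29 FPKM in Cd73N wild type, 4.19 ± 0.33 in the library labelled Cd73N Ezh2-CKO, 0.97 ± 0.18 in wild-type Cd73P and 0.94 ± 0.17 in Ezh2-CKO Cd73P. The genotypes differed by more than 2 SE in Cd73N, below the threshold at 0.45 ± 0.15 (SE), and by less than the SE in Cd73P at -0.02 ± 0.18. Its ratio of Cd73P over Cd73N was -0.94 ± 0.17 in wild type and -1.42 ± 0.16 in Ezh2-CKO. On the log2(FPKM + 1) scale this was the nearest to 0 of the 10 genes in each genotype. Without a pseudocount the Ezh2-CKO level of Cd68 in Cd73P was 22.5% of that in Cd73N, below Csf1r at 24.7% and Fcer1g at 27.9%. Cd68 lies at chr11:69477873-69479564 on the minus strand (mm9).

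Aif1 and Cd68 rested on few fragments, as implied by the bounds: 79 and 71 in Cd73N wild type, 76 and 118 in the library labelled Cd73N Ezh2-CKO, 15 and 27 in wild-type Cd73P, and 14 and 27 in Ezh2-CKO Cd73P. In wild-type Cd73P Fcer1g rested on 26. Csf1r rested on the most in every library, with 628, 1404, 244 and 274. Their RefSeq windows also held the PU.1 core, Aif1 on the opposite strand 7 bases before the start and Cd68 on the coding strand 225 bases before it. They are shown as the pair whose cores lie nearest to and farthest from the start among the 4 windows.
Aif1 (chr17:35176053-35176302, minus strand, GRCm38.p6): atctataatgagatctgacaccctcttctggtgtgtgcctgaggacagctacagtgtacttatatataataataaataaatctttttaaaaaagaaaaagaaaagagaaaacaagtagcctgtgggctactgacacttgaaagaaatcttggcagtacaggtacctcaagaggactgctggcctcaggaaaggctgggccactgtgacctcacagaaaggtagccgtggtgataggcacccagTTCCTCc
Cd68 (chr11:69666171-69666420, minus strand, GRCm38.p6): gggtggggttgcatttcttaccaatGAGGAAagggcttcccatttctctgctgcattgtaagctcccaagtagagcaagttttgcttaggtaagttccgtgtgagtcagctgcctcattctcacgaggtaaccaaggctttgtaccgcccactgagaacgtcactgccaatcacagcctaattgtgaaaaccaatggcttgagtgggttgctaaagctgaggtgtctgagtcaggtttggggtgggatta

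By level, C1qb, C1qa, C1qc and Tyrobp led in this order in 3 libraries, followed by Csf1r, Fcer1g and P2ry12 in each of these 3. In Cd73P Ezh2-CKO the order was C1qa, C1qc, C1qb, Csf1r, Tyrobp, Fcer1g, P2ry12. Neighbours within 2 counting SE of each other included Csf1r and Fcer1g in Cd73N wild type (7.14 ± 0.28 and 6.73 ± 0.52 FPKM), Fcer1g and P2ry12 in the library labelled Cd73N Ezh2-CKO (8.60 ± 0.57 and 8.09 ± 0.32) and C1qc and C1qb in Ezh2-CKO Cd73P (5.86 ± 0.47 and 5.66 ± 0.44). Cx3cr1, Aif1 and Cd68 took the last 3 places in every library, in changing order.

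A measure chosen after the values were seen sets the level in Cd73P as a percentage of that in Cd73N, without a pseudocount. In wild type the 10 genes ran from 12.3% ± 3.3 for Aif1 to 34.9% ± 7.4 for Cd68, with a median of 20.5%. In Ezh2-CKO they ran from 15.0% ± 1.2 for C1qb and 15.0% ± 4.2 for Aif1 to 27.9% ± 4.2 for Fcer1g, with a median of 19.8%. The genotypes were close for C1qa, at 20.3% in both, and apart for P2ry12, at 32.0% ± 3.7 in wild type and 18.9% ± 1.9 in Ezh2-CKO. Over all genes past the threshold downwards the median was 30.6% in wild type and 21.3% in Ezh2-CKO, with quartiles of 9.83% and 50.5% and of 5.34% and 49.2%, so the medians of the 10 genes lay between those quartiles.

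Marker lists of other cells, over genes with an FPKM of at least 1 in Cd73N, are given beside them as a description with no test. In wild type the median was 5.39% for 8 Müller glia markers, 5.83% for 6 cone markers, 8.81% for 6 bipolar cell markers, 1.15% for 5 pericyte markers and 1.22% for 3 red cell markers. In Ezh2-CKO these medians were 3.74%, 1.94%, 3.11%, 0.52% and 0.88%. The highest Müller glia marker in wild type reached 12.8%, just over Aif1, and 5.44% in Ezh2-CKO, while the cone, pericyte and red cell markers lay below the lowest microglia gene in both genotypes. Of 3 astrocyte markers the median was 33.9% and 26.6%, above that of the microglia genes, and ganglion cell markers had 24.9% (3 markers) and 12.0% (2 markers). Amacrine markers were at 200% (2 markers) and 12.3% (4 markers). Among the bipolar markers 1 reached 94.3% in wild type and 121% in Ezh2-CKO. The plot of these percentages, drawn from unscaled FPKM, shows the 10 microglia genes at similar heights in both genotypes. Other microglia and macrophage genes, listed below, had medians of 27.9% in wild type (13 genes) and 19.8% in Ezh2-CKO (16 genes). Under scaling by the FPKM sum the median log2 ratios of the 10 genes were -1.30 in wild type and -1.63 in Ezh2-CKO. Unscaled they were -1.57 and -1.78. How these transcripts came to be in Cd73P was not tested.

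**Figure D3:**
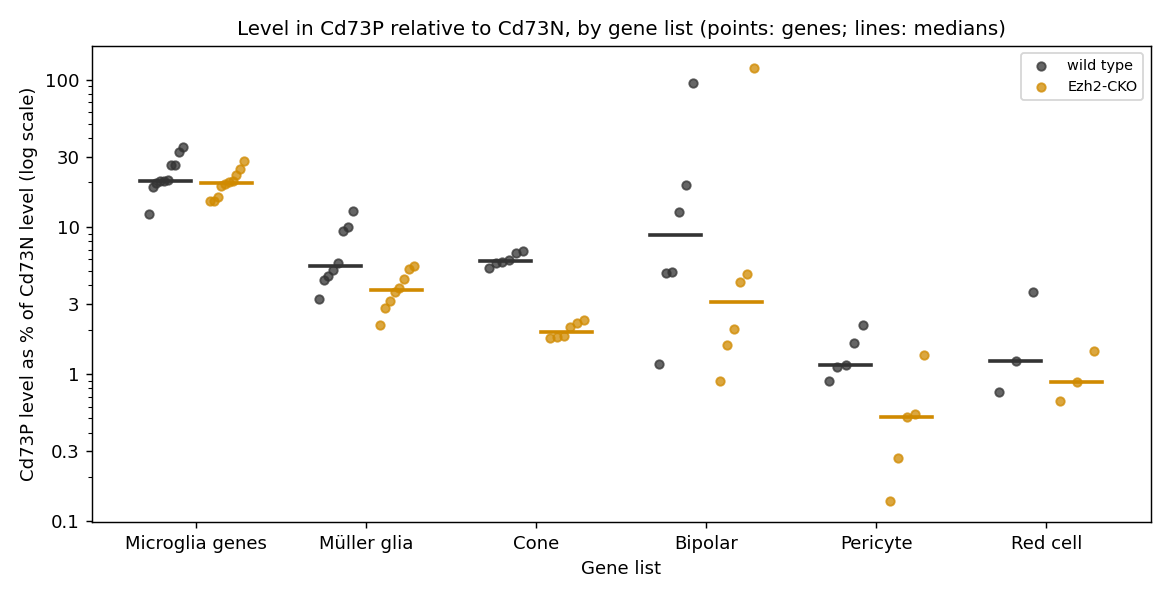
Level in Cd73P as a percentage of the level in Cd73N on a log axis for the genes of 6 lists with an FPKM of at least 1 in Cd73N, in wild type (black) and Ezh2-CKO (orange), with lines at the medians. The 10 microglia genes have medians of 20.5% and 19.8%, and the cone markers of 5.83% and 1.94%.

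Of 18 other genes of microglia and macrophages, a list written for these data, 5 were higher and none was lower in the library labelled Cd73N Ezh2-CKO, with a median ratio of 0.47 and all 18 above 0. The share over all genes was 7.18% higher and 1.71% lower. Among them were Sall1 (1.06), a transcription factor of microglia, Selplg (0.86), a ligand of selectins, Siglech (0.76), a sialic acid receptor, and Olfml3 (0.75), a secreted protein. They were named after their values were seen. Olfml3 was 5.19 FPKM in Cd73N wild type, 9.42 in the library labelled Cd73N Ezh2-CKO, 1.05 in wild-type Cd73P and 1.37 in Ezh2-CKO Cd73P. Sall1 and Siglech were below 1 FPKM in Cd73N wild type. Without a pseudocount Sall1 was 4.07-fold higher in the library labelled Cd73N Ezh2-CKO, against 1.80-fold for P2ry12, the highest of the 10 genes. Which cells carried the transcripts of this list was not tested. In Cd73P none of the 18 was past the threshold between genotypes, with a median of 0.11. Only 6 of the 18 reached 1 FPKM in either Cd73P library, so the pseudocount left little room for calls in the others. Between fractions 13 of 18 were lower in Cd73P in wild type and 17 of 18 in Ezh2-CKO, with medians of -0.81 and -1.30. Over all genes 27.9% were lower in Cd73P in wild type and 29.1% in Ezh2-CKO. Over genes with an FPKM of at least 1 in 1 library of the pair these shares were 45.9% and 45.6%.

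The other genes of the pathways around the 10 genes were counted over every listed gene, against the same 7.18% higher and 1.71% lower over all genes. Of the ligands of the microglial receptors, Csf1 was 1.02 FPKM in Cd73N wild type and 5.03 in the library labelled Cd73N Ezh2-CKO, a ratio of 1.57, and Cx3cl1 (fractalkine) was 1.34 and 4.11, a ratio of 1.13. Il34, the other ligand of CSF1R, was 3.49 and 4.12 FPKM, with a ratio of 0.19, and Tgfb1 had a ratio of -0.08. Thus 2 of 5 listed ligands were higher and none lower, with a median of 0.19, and all 5 were at most 0.29 FPKM in both Cd73P libraries. Of 8 myeloid transcription factors none was past the threshold, with a median of 0.21. Only 4 of the 8 reached 1 FPKM in either Cd73N library. Sfpi1 (PU.1) was 1.51 and 1.82 FPKM in the Cd73N libraries, and Irf8, its partner in macrophages, 1.86 and 2.05, with ratios of 0.17 and 0.09.

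Beyond the C1q chains, 2 of 13 complement genes were higher and none was lower in the library labelled Cd73N Ezh2-CKO, with a median of 0.22. C4b, a component cleaved after C1q binding and one of the 2, was 0.052 and 0.64 FPKM and was named after its value was seen. C1s, a protease that C1q activates, Cfp (properdin) and the inhibitors Cd59a and Serping1 were not past the threshold, with ratios of 0.54, 0.30, -0.20 and -0.26. Of 14 ITAM receptors and signalling genes, Lyn, a kinase that phosphorylates ITAMs, was higher (1.66 to 4.06 FPKM, ratio 0.93) and none was lower, with a median of 0.29. Trem2, whose signal TYROBP carries, was 6.36 and 8.54 FPKM in Cd73N and 1.70 and 1.59 in Cd73P, with genotype ratios of 0.37 and -0.06. Of 6 purinergic genes beside P2ry12 none was past the threshold on the log2(FPKM + 1) scale, with ratios of 0.45 for P2ry13 and 0.28 for P2rx4. Only 2 of the 6 reached 1 FPKM in either Cd73N library, so the pseudocount damped the others. Without it P2rx7, Adora3, Entpd1 and P2ry13 were 2.73-fold, 2.73-fold, 2.38-fold and 1.78-fold higher. P2ry6 and P2rx4 were 1.42-fold and 1.28-fold higher.

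Of 12 lysosomal and phagocytic genes, 5 were higher and none was lower in the library labelled Cd73N Ezh2-CKO, with a median of 0.47, against 7.18% higher and 1.71% lower over all genes. They were named after their values were seen: Mertk (1.69) and Axl (0.90), receptors for dying cells, Pros1 (0.997), which bridges them to phosphatidylserine, and the lysosomal genes Ctss (0.73) and Lamp2 (0.60). Müller glia also transcribe Mertk, and all 8 Müller glia markers were higher in that library, with a median of 2.11, as were 2 of 4 astrocyte markers. Mertk was below 1 FPKM in Cd73N wild type, at 0.89. The part of those cells in these ratios was not tested. Of 16 activation genes, Lgals3 (1.16), the chemokine gene Ccl2 (0.62) and H2-Ab1 (0.59) were higher and Igf1 (-0.62) was lower, with a median of 0.23. Ccl2 was named after its value was seen and was below 1 FPKM in every library.

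**Figure D4:**
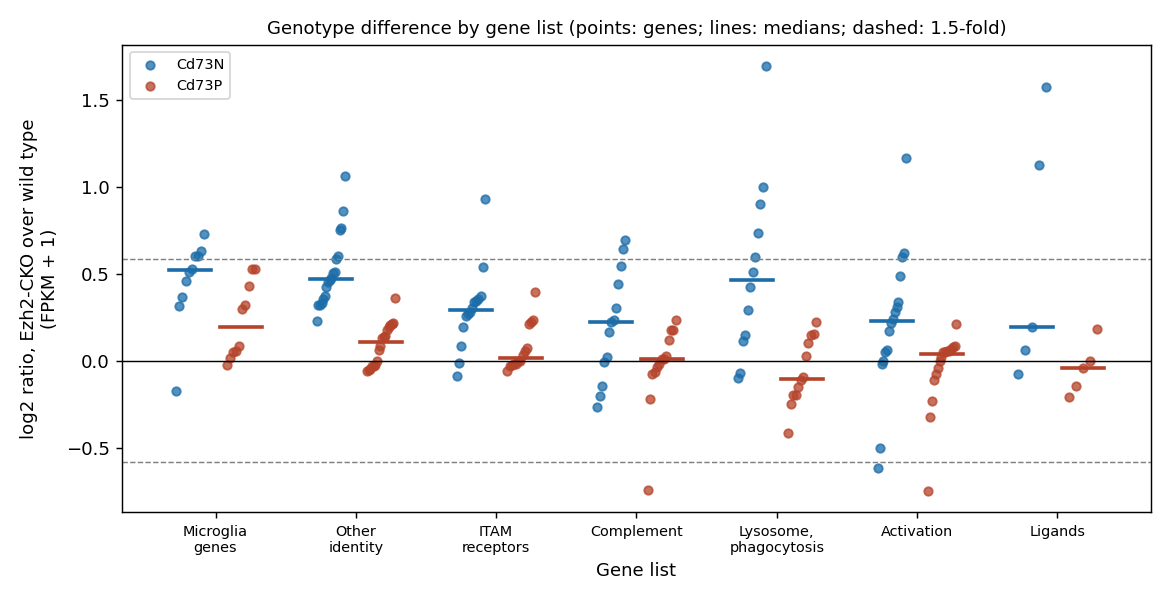
Log2 ratio of FPKM + 1, Ezh2-CKO over wild type, for the genes of 7 lists in Cd73N (blue) and Cd73P (red), with lines at the medians and dashed lines at 1.5-fold. Every listed gene is drawn, and the 10 microglia genes have medians of 0.52 and 0.19.

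Markers of other white blood cells were mostly below 1 FPKM. Of 8 markers of border macrophages and monocytes, Mrc1 and Cd163, named because they define border macrophages, were at most 0.062 and 0.013 FPKM in the 4 libraries, and Ccr2 was at most 0.08. Lyve1, which lymphatic and other vessel cells also carry, was 12.8 FPKM in Cd73N wild type and 9.14 in the library labelled Cd73N Ezh2-CKO. This was the opposite direction to 9 of the 10 microglia genes, all but Aif1. Plac8, the other of the 2 markers with an FPKM of at least 1, had a ratio of 0.38. The neutrophil genes S100a8 and S100a9 were 1.93 and 1.06 FPKM in Cd73N wild type. In the library labelled Cd73N Ezh2-CKO they were 3.62 and 4.42 FPKM, with ratios of 0.65 and 1.40. Of 4 neutrophil markers 3 were higher there, against 7.18% of all genes. The red cell markers Hba-a1 and Hbb-b1 were 2206 and 614 FPKM in Cd73N wild type and 2006 and 747 in the library labelled Cd73N Ezh2-CKO, with no call between genotypes. The lymphocyte markers were below 1 FPKM in all libraries except Cd79a, at 1.19 in Cd73N wild type. Whether these cells contributed to the microglia genes was not tested.

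The genes whose pattern over the 4 libraries was nearest to the mean of the 10 microglia genes were sought by the distance between log2(FPKM + 1) values centred on their own means. The nearest 10 of 13051 genes were Fam55d, Rbpms, Angptl2, Ptpn9, Laptm5, Immp2l, Mfap2, Mrps6, Tmem184b and Hyal2, at distances from 0.055 to 0.15 log2 units. Laptm5, a lysosomal membrane protein of blood-derived cells, was the only one of these also on the list of other microglia genes. Of the microglia genes themselves, Cx3cr1 was nearest to their mean at 0.23 and Cd68 farthest at 0.61, so a pattern over 4 libraries did not separate them from genes of other cells.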

How the data were processed

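The authors sequenced poly(A) RNA of sorted cells as 36-base single-end reads, aligned them to mm9 with TopHat 2.0.8b (coverage search, at most 50 hits allowed) and derived FPKM through Cufflinks 2.1.1. The deposited tables hold FPKM, a lower and an upper bound and a status for 23021 rows per library; FPKM was not scaled between libraries. Total reads were not analysed here, so absolute depth is unknown.

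Sample titles gave the groups. The 10 genes and all gene lists were chosen with earlier results of these data known. Rows sharing a symbol were summed (234 symbols), rows without an OK status were left out, and values were compared as log2(FPKM + 1) with a threshold of 1.5-fold (pandas 2.3.3, numpy 2.4.6). The width of the deposited bounds was taken as 4 SE, and implied fragments as the squared ratio of their midpoint to the SE. Named genes were the 10 members, Ezh2 and Nt5e, at most 6 genes of highest FPKM per list and the 10 nearest in pattern; others are marked in the text. List counts and medians use every listed gene, with no filter on low values. Spi1 was matched as Sfpi1. Coordinates are given with 1 added to the listed start, since 9786 of 20625 starts then equal those of GENCODE on the same build. The counting was tested on simulated data, with 2-fold changes planted in genes of at least 10 FPKM. That test did not cover changes near 1.5-fold or the lower levels of most of the genes described here. Alternatives were pseudocounts of 0.1 and 5, 2 scalings, a 2-fold threshold, filters, non-overlapping bounds, rows of every status and the C1q chains averaged. Some genes that met the naming rule are not reported here.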

Additional observations from a re-analysis of the deposited data

Results flagged for a closer look

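None of the 10 microglia genes had genotype ratios of opposite sign in the 2 fractions that were each past 2 counting SE. Among the genes named around them, these were positive in Cd73N and negative in Cd73P, by a difference on the log2 scale of 1.34 for Cx3cl1, 1.01 for Lamp2, 0.97 for Lpl, 0.79 for Irf5, 0.69 for Ezh2, 0.40 for Ctsd, 0.40 for Gas6 and 0.31 for Ctsb. Serping1, an inhibitor of C1 proteases, went the other way, with a difference of -0.44. By list medians over genes with an FPKM of at least 1 in 1 library of the pair the difference was 0.52 for complement genes, 0.64 for lysosomal and phagocytic genes, 1.33 for cone markers and -1.21 for rod markers. With 1 library per group these differences were not tested. Over every listed complement gene the medians were 0.22 and 0.01, of 1 sign, and some genes passed that minimum through 1 library only.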

How the results depend on the processing

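Of 104 counts and medians recomputed under other settings, 87 stayed within 1.5 times the count or within the counting SE and 17 moved. Of 270 ratios of single genes, 150 stayed within their counting SE and 120 moved. Using rows of every status, or an FPKM of at least 1 in 1 library of the pair, could not change any single ratio of these genes. Both settings are included among those that stayed, so the tallies overstate the stability. No ratio or median past the threshold changed sign (0 of each). The median of Cd73P over Cd73N in wild type was -2.20 with a pseudocount of 0.1, -0.81 with 5, -1.36 under scaling by the median ratio, -1.30 under scaling by the FPKM sum, and -2.30 without a pseudocount in genes with an FPKM of at least 1 in both libraries; in Ezh2-CKO the same settings gave -2.29, -1.04, -1.58, -1.63 and -2.34. Between genotypes in Cd73N, 0 genes were higher with a pseudocount of 5 and 0 at 2-fold, and the median was 0.40 with a pseudocount of 5 and 0.66 under scaling by the FPKM sum. Shares over all genes were not recomputed for other pseudocounts or scalings. In Cd73P, 3 genes were higher with a pseudocount of 0.1. Without a pseudocount, 3 of the genes with an FPKM of at least 1 in both libraries were higher, with a median of 0.44. That filter left out Cx3cr1, which was 1.56-fold higher in Ezh2-CKO Cd73P without a pseudocount. The sums without the C1q chains were 41.6 FPKM in Cd73N wild type, 59.0 in the library labelled Cd73N Ezh2-CKO, 9.89 in wild-type Cd73P and 12.2 in Ezh2-CKO Cd73P. As shares of the FPKM sum of each library, the 10 genes held 0.0269%, 0.0436%, 0.00768% and 0.00963%.

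No paired analysis was possible because each group held 1 library. The fractions of each genotype form 1 pair, whose ratios are those given in the report, and no library could be left out of a comparison. Whether both fractions of a genotype came from the same retinas is not stated for these libraries in the sources used here. The SE cover counting error only, and animals or repeated sorts may differ by more. The 4 genotype differences in Cd73N past the threshold rest on 1 pair of libraries, of which the one labelled Ezh2-CKO did not show less Ezh2. In Cd73P the lower members rested on 14 to 42 implied fragments, so small differences of Aif1, Cd68, Fcer1g and Tyrobp were not detectable at this depth there.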
